A study of Mus musculus with 27 samples.

Results

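The sarcomeric myosin heavy chains are the motor proteins of striated muscle, and 7 of their genes were followed here through the mouse esophagus: Myh3, Myh8, Myh1, Myh2, Myh4, Myh6 and Myh7. The members were the non-control probes assigned to 1 of these 7 symbols by RefSeq accession or by both versions of the arrays' annotation. They comprised 16 of 41174 probes, and 7 of 29653 genes or unnamed probes, on 27 arrays. All 7 genes had at least 1 probe. Of the other sarcomeric genes sought by name, Myh7b and Myh15 had none and Myh13 was never above background.

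RNA of the esophagus was labelled with Cy5 and hybridised to a 2-colour oligonucleotide array with a Cy3-labelled Universal Mouse Reference RNA, a commercial pool of RNA from mouse cell lines. The 9 groups of 3 arrays were wild-type C57BL/6J whole esophagus at embryonic days 11.5 (E11.5) and 15.5 (E15.5), at birth (P0) and at postnatal day 7 (P7), whole esophagus at P7 of Nrf2-/-, Keap1-/- and Nrf2-/-Keap1-/- mice, and epithelium alone from 8-week-old adults, either wild-type or Nrf2-/-. The mutants were labelled as having a C57BL/6J background, are labelled null for the named gene or genes with no tissue-specific deletion named, and no group has a treatment in its labels. Nrf2, encoded by Nfe2l2, is a transcription factor of the oxidative stress response, and Keap1 is the adaptor that targets it for degradation. The study asked which genes change as the simple columnar lining becomes stratified (the metaplasia phase, E11.5 to P7) and then matures (the maturation phase, P7 to adult), and what loss of Nrf2 or Keap1 does to them. The adult samples were epithelium and the P7 samples whole esophagus, so age and tissue cannot be told apart in any comparison of adult with P7. In whole tissue, fewer muscle cells and less RNA per muscle cell cannot be told apart either.

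A myosin heavy chain pairs with a second heavy chain and with light chains, and these molecules assemble into the thick filament that pulls on actin. Fibers replace 1 isoform by another during development: embryonic (Myh3) and perinatal (Myh8) myosins precede the adult fast isoforms 2A (Myh2), 2X (Myh1) and 2B (Myh4), while slow fibers and the heart use Myh7, the beta isoform, and cardiac muscle also uses Myh6, the alpha isoform. In the mouse the muscle wall of the esophagus is first smooth and then becomes largely striated around and after birth. The developmental and fast genes stand side by side on chromosome 11, where the GRCm38.p6 annotation places Myh3 at chr11:67078273-67102291, Myh2 at chr11:67171027-67197517, Myh1 at chr11:67200102-67224577, Myh4 at chr11:67237812-67260447 and Myh8 at chr11:67277124-67308634. Myh6 (chr14:54941921-54968017) and Myh7 (chr14:54970684-54994626) form a pair on chromosome 14.

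The isoforms are closely related proteins, and some probes carried bases of more than 1 of their genes. The probes below are given as spotted, 5′ to 3′, with the mm9 positions of the file headers. The first pair is shown because a run of 19 bases, in capitals, was common to a Myh8 probe (chr11:67121925-67121984, plus strand) and a Myh1 probe (chr11:67037938-67037997, plus strand) and was found on only these 2 of the 41174 probes.
Myh8 probe A_51_P143296: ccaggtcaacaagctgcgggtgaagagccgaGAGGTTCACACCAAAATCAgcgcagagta
Myh1 probe A_51_P192042: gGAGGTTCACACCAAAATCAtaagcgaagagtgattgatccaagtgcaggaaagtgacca
The second pair is shown because 1 of the 2 Myh3 probes (chr11:66914857-66914916) and the coding Myh4 probe (chr11:67072804-67072863) lay over the same stretch of their genes. Capitals mark the bases that matched when the sequences were slid along each other without gaps, 40 of 55 aligned bases (72.7%).
Myh3 probe A_51_P167668: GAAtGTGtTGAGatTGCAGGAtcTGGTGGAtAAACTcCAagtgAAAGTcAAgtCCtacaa
Myh4 probe A_52_P602147: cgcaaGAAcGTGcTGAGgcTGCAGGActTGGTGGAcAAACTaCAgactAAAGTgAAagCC
The second Myh8 probe (chr11:67098388-67098447) and 1 of the 2 Myh6 probes (chr14:55565256-55565315, minus strand) did not hold the 19-base run and are given for comparison.
Myh8 probe A_52_P224283: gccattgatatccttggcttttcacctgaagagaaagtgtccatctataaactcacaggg
Myh6 probe A_52_P117510: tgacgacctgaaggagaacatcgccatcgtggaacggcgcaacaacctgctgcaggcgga
Of the remaining probes, the 2 of Myh7 overlapped by 55 bases and were therefore nearly the same measurement, the other Myh3 probe, A_52_P247953, shared 32 bases with the one shown, and Myh1 probe A_52_P257638 lay on the strand opposite to the gene. Cross-hybridisation between isoforms was not tested.

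The promoters of the neighbouring fast and perinatal genes shared a run of bases that those of the remaining isoforms lacked. The 14 bases TTCTAATTATATCC, searched for on both strands of the 250 bases before each start, stood in 4 of 32851 RefSeq promoters of GRCm38.p6 (0.0122%), and these 4 belonged to Myh2, Myh1, Myh4 and Myh8. The run was chosen because these promoters share it, so its rarity is a description, and its absence elsewhere says only that these letters are not in those windows. It began 125 bases before the start of Myh2, 160 before Myh1, 158 before Myh4 and 54 before Myh8, and is in capitals in the plus-strand windows chr11:67170879-67170938, chr11:67199919-67199978, chr11:67237631-67237690 and chr11:67277047-67277106.
Myh2 promoter: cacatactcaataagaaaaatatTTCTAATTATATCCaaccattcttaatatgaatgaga
Myh1 promoter: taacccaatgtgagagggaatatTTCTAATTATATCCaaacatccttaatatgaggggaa
Myh4 promoter: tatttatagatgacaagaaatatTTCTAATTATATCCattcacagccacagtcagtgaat
Myh8 promoter: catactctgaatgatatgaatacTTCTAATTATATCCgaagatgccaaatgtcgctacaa
The TATA-type letters TATAAAA, which cannot overlap that run, were in the windows of Myh3, Myh1 and Myh4 among the members and in 1636 of all promoters (4.98%), on either strand.

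Each value below is a log2 ratio of Cy5 (the esophagus) over Cy3 (the reference) after background correction and loess normalization, averaged over a gene's probes, and a gene is said to have risen or fallen where limma gave an adjusted p of at most 0.05 over all genes tested. Levels are not compared between genes, because each gene has its own probes and its own level in the reference. On every array 58.9 to 69.3% of Cy5 spots were well above background, but other measures followed group and scan. The share of spots marked as outliers was 0.34 to 0.52% on the 4 arrays of scans 3 and 4 (all Nrf2-/- adults and wild-type adult replicate 3), 1.9 to 3.7% on the Keap1-/- arrays and 8.5 to 16.1% on all others. Median Cy3 was 115 to 147 on the Keap1-/- arrays and 223 to 386 elsewhere, and median Cy5 was 195 to 226 on the Nrf2-/- adult arrays and 81.8 to 165 elsewhere. Their part in the genotype comparisons was not tested. Nfe2l2, the gene deleted in Nrf2-/- mice, averaged -3.89 in Nrf2-/- and -4.12 in Nrf2-/-Keap1-/- esophagus at P7 against -0.26 in wild-type, and -3.32 against 0.98 in adults. Keap1 was not called lower in the arrays labelled Keap1-/- (-0.45 ± 0.22 (SE) against wild-type, limma adjusted p = 0.14) or Nrf2-/-Keap1-/- (-0.99 ± 0.22, adjusted p = 0.081). Its values in Nrf2-/-Keap1-/- (-0.5 to -0.19) lay under all wild-type P7 arrays (0.42 to 1). Those labelled Keap1-/- (-0.26 to 0.64) overlapped wild-type. The arrays labelled Keap1-/- were alone on their slide and in their scan, so genotype and scan cannot be told apart.

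The array labelled E11.5 replicate 3 correlated at r = 0.98 with E15.5 replicates 2 and 3 but at 0.83 and 0.77 with E11.5 replicates 1 and 2 (21570 genes, a description across genes). The array labelled E15.5 replicate 1 correlated at 0.96 and 0.93 with E11.5 replicates 1 and 2 but at 0.80 and 0.81 with the other arrays of its own label. Labels were kept as deposited, and embryonic results are given with and without these 2 arrays.

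The reference channel of many isoform probes moved together with the esophagus channel. Over the 27 arrays the Cy3 intensity of the 16 probes varied by 0.96 to 6.9 on the log2 scale, and 10 of them exceeded 2.8, the 95th percentile of 30564 probes. The same 10 had a Cy5 range of at least 8, and the median Cy3 range of all 364 probes with so wide a Cy5 range was 3.78. At Myh8 probe A_51_P143296, the Cy3 intensity was 326, 494 and 415 at E11.5 and 24276, 6796 and 25761 in wild-type at P7, although every array received the same reference. A ratio in which both channels rise is smaller than the rise of Cy5, so changes of Cy5 alone, quantile-normalized between arrays, are given beside the ratios. The cause of this co-movement was not tested.

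**Figure D1:**
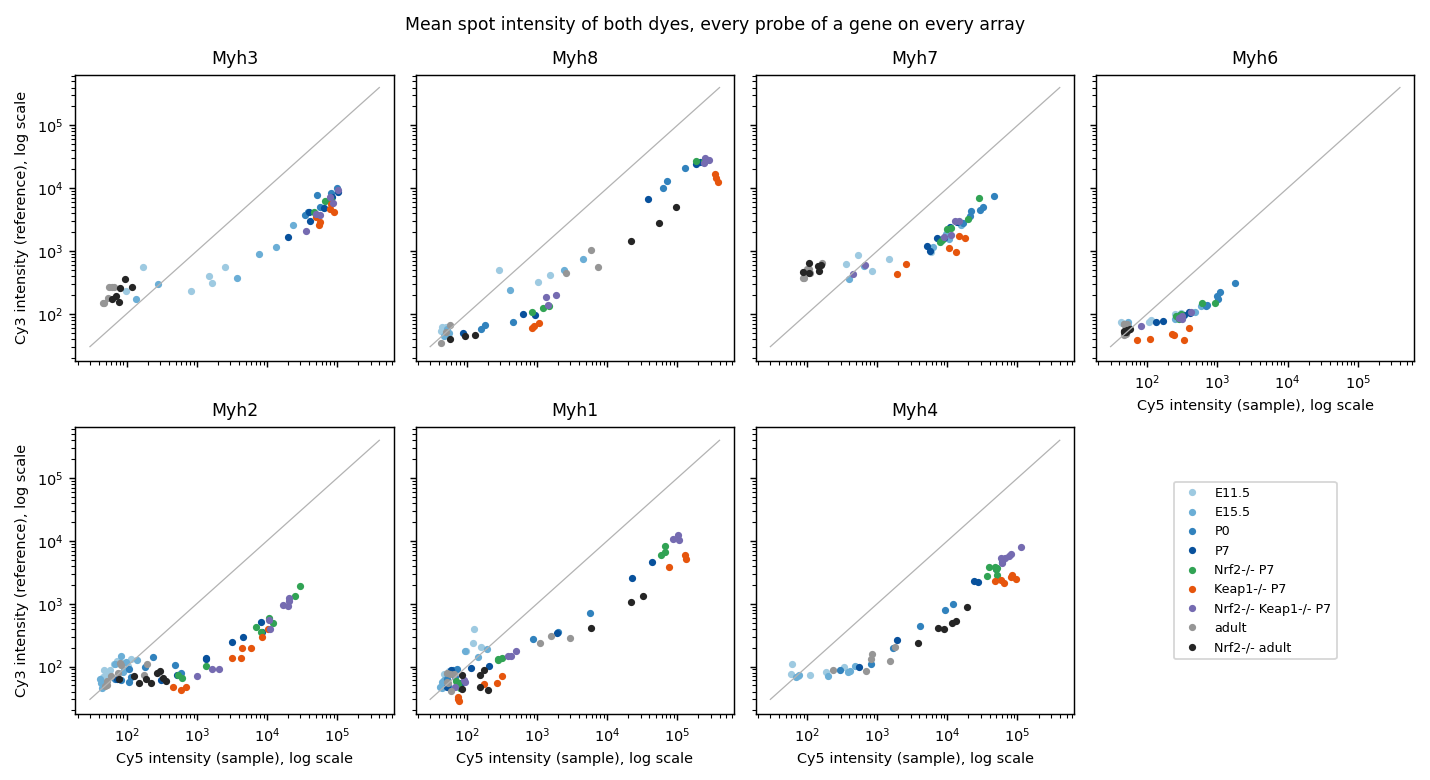
Cy3 intensity of the common reference (vertical, log axis, scanner units) against Cy5 intensity of the esophagus (horizontal, log axis) for the isoform probes, with 1 point per probe and array and a grey line where both are equal. The points run up and to the right, with 10 of 16 probes varying in Cy3 by more than 2.8 on the log2 scale.

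Skeletal muscle markers read lower in the embryo than after birth. Myh1, Myh2, Myh3, Myh7 and Myh8 were above background on every embryonic array. So were 7 of 8 skeletal muscle markers on every E11.5 array and all 8 on every E15.5 array. The mean log2 ratio of 8 skeletal muscle markers lay between -0.58 and 1.97 on the embryonic arrays, between 3.04 and 3.36 at P0 and between 3.21 and 4.32 in wild-type at P7. Over the 4 wild-type ages, Myh1 (limma adjusted p = 0.00033), Myh2 (0.00024), Myh8 (0.0018) and Myh4 (0.0025) changed, which is 4 of 7 members where 29.9% of all genes were called. Myh3 (0.086), Myh6 (0.069) and Myh7 (0.12) did not pass. Without the 2 arrays that stood apart, all 7 passed and 45.6% of all genes were called, and leaving out E15.5 replicate 1 alone also gave 7. By Cy5 alone all 7 passed as well, with 30.4% of all genes called.

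**Figure D2:**
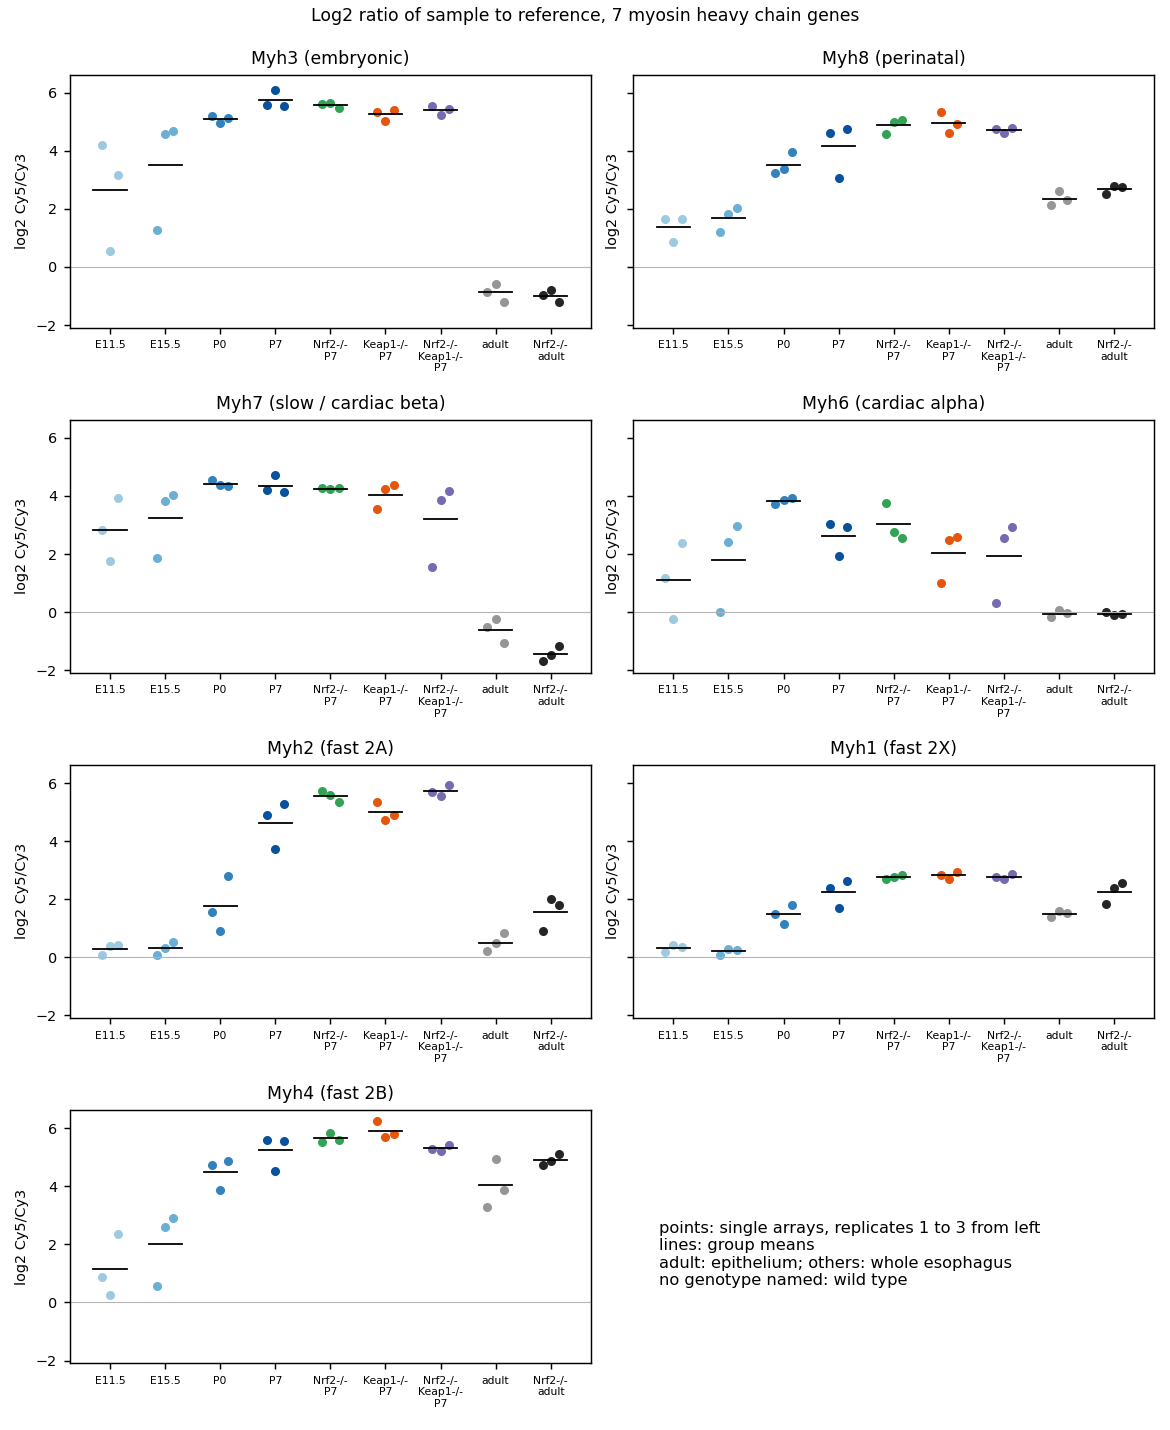
Log2 Cy5/Cy3 of the 7 isoform genes (1 panel each) in the 9 groups, with 1 point per array and a line at each group's mean. Myh3 and Myh7 are high from P0 to P7 and below 0 in both adult groups, while Myh2 is near 0 in the embryo and at least 3.72 on every array at P7.

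Myh3 encodes the embryonic myosin heavy chain, the earliest of the skeletal isoforms. Its log2 ratios were 4.19, 0.54 and 3.17 at E11.5 and 1.26, 4.59 and 4.69 at E15.5. They were 5.20, 4.97 and 5.14 at P0 and 5.58, 6.11 and 5.54 at P7. The embryonic labels overlapped each other widely, and every P0 and P7 array lay above every embryonic array. Against the mean of both embryonic labels, P0 was higher by 2.03 ± 0.84 (SE), which did not pass (adjusted p = 0.097), and without both arrays by 1.60 (adjusted p = 0.092). At probe A_51_P167668, Cy5 intensity was 2551, 172 and 1506 at E11.5, 282, 7608 and 23621 at E15.5, and 82362, 52016 and 99910 at P0. Its Cy3 intensity went from 557, 553 and 407 at E11.5 to 8280, 7827 and 9931 at P0. At the overlapping probe A_52_P247953, Cy5 was 1656, 96.9 and 816 at E11.5 and 38118, 34810 and 57614 at P0, so replicate 2 was the low E11.5 array at both. By Cy5 alone, Myh3 rose by 5.54 ± 1.15 between the embryonic mean and P0 (adjusted p = 0.0058, with 27.6% of all genes called by Cy5 alone), the largest change by Cy5 alone among the members.

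Myh8 encodes the perinatal isoform, which follows the embryonic one in developing fibers. Its ratios were 1.64, 0.85 and 1.64 at E11.5, and 1.22, 1.84 and 2.02 at E15.5. They reached 3.23, 3.36 and 3.96 at P0 and 4.63, 3.06 and 4.76 at P7. No P0 array overlapped an embryonic array, and P7 replicate 2, at 3.06, lay under all P0 values. Myh8 rose 3.54-fold between E15.5 and P0 (1.82 ± 0.43 on the log2 scale, adjusted p = 0.015), and by 3.99 ± 0.62 by Cy5 alone (adjusted p = 0.0023), where 17.4% of all genes were called by Cy5 alone. The adjusted p was 0.045 without both arrays that stood apart (19.3% of all genes called), 0.054 without E15.5 replicate 1 alone and 0.062 without P0 replicate 3. Between P0 and P7 its change of 0.63 did not pass.

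The 2 Myh8 probes, whose sequences are given above, moved the same way at birth. At A_51_P143296, which carries the run shared with Myh1, Cy5 was 406, 2447 and 4482 at E15.5, 71976, 61609 and 129181 at P0, and 186730, 38842 and 212718 at P7. At A_52_P224283, without that run, it was 52.5, 47.5 and 55.5 at E15.5, 182, 159 and 462 at P0, and 627, 87.4 and 948 at P7. Both probes had P0 arrays that were all above E15.5. From the probe without the run, the change of Myh8 between E15.5 and P0 was 2.45 ± 0.73 (adjusted p = 0.038). No embryonic array was well above background at A_52_P224283, which met the filter only through P0 and P7, so this p-value is descriptive. From the probe with the run alone the change was 1.19 and missed the threshold (adjusted p = 0.10).

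**Figure D3:**
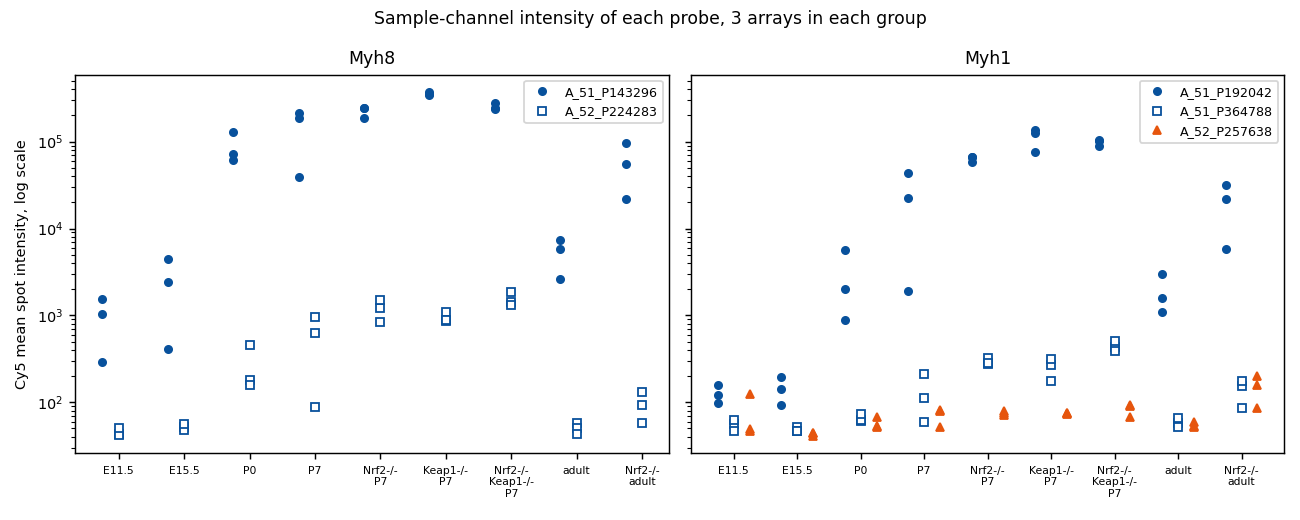
Cy5 intensity (log axis, scanner units) of each Myh8 and Myh1 probe by group, with 1 point per array. Both Myh8 probes rise from E15.5 to P0, at A_52_P224283 from the range 47.5 to 55.5 to the range 159 to 462, while the opposite-strand Myh1 probe stays between 41.1 and 198 throughout.

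Myh2 encodes fast isoform 2A. Its ratios were 0.09, 0.39 and 0.41 at E11.5, 0.07, 0.33 and 0.51 at E15.5, and 1.56, 0.92 and 2.80 at P0. At P7 they were 4.90, 3.72 and 5.28. All P0 arrays exceeded all embryonic arrays, and all P7 arrays exceeded all P0 arrays. The change between E15.5 and P0 (1.46 ± 0.46, 2.74-fold) passed narrowly (adjusted p = 0.049). It missed in 9 single leave-outs, with adjusted p from 0.056 without E11.5 replicate 3 to 0.16 without P0 replicate 3, was 0.12 without both arrays that stood apart, and was 0.15 by Cy5 alone.

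Between P0 and P7, Myh2 was the only member that rose, where 2.45% of all genes were called and 1.45% called higher. The rise was 7.32-fold (2.87 ± 0.46 on the log2 scale, adjusted p = 0.0092) and 10.4-fold by Cy5 alone (3.38 ± 0.48, adjusted p = 0.0057), where 2.06% of all genes were called. At probe A_51_P225134, Cy5 intensity was 183, 107 and 488 at P0 and 4587, 1370 and 8332 at P7. At A_51_P395652 the P7 ratios were 3.20, 0.58 and 3.83, so replicate 2 was the low array there too. Without that array, Myh1 was called beside Myh2 (1.04, adjusted p = 0.022), and 2 members were called in place of 1.

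Myh1 encodes fast isoform 2X. Its ratios were 0.18, 0.44 and 0.34 at E11.5 and 0.07, 0.29 and 0.26 at E15.5. They were 1.48, 1.14 and 1.81 at P0, then 2.40, 1.70 and 2.63 at P7. Every P0 array lay above every embryonic array, whereas P0 and P7 overlapped at P7 replicate 2. Myh1 rose 2.42-fold between E15.5 and P0 (1.27 ± 0.23, adjusted p = 0.0045), which held in every single leave-out, and its change of 0.76 ± 0.23 between P0 and P7 did not pass (adjusted p = 0.14). The gene mean includes the opposite-strand probe, whose Cy5 never exceeded 198, and without it the rise at P0 was 1.78 ± 0.26 (adjusted p = 0.0014). At the brightest probe, A_51_P192042, Cy5 was 94.1, 143 and 196 at E15.5, 2015, 874 and 5731 at P0, and 22384, 1932 and 43690 at P7. That probe alone gave a rise of 3.34 ± 0.31 at P0 (adjusted p = 7.2e-05).

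Myh4 encodes fast isoform 2B. Its ratios were 0.88, 0.24 and 2.34 at E11.5, 0.58, 2.60 and 2.89 at E15.5, 4.73, 3.88 and 4.87 at P0, and 5.60, 4.54 and 5.56 at P7. The P0 and P7 arrays lay above all embryonic arrays and overlapped each other. Myh4 rose 5.55-fold between E15.5 and P0 (2.47 ± 0.66, adjusted p = 0.024), the largest ratio change among the members called in that comparison. The adjusted p was 0.013 without both arrays that stood apart, but it was 0.071 without E15.5 replicate 1, 0.078 without P0 replicate 1 and 0.085 without P0 replicate 3. At A_52_P602147, whose bases resemble the Myh3 probe, Cy5 was 76, 199 and 485 at E15.5, 9290, 4025 and 12163 at P0 and 23789, 1922 and 49317 at P7. The P7 replicate 2 array was the low one again, with a Cy3 intensity of 269 against 2325 and 3616 on the other P7 arrays.

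Myh6 encodes the cardiac alpha isoform. Its ratios were 1.17, -0.22 and 2.38 at E11.5, 0.01, 2.41 and 2.96 at E15.5, 3.73, 3.87 and 3.92 at P0, and 3.03, 1.93 and 2.94 at P7. P0 had the highest mean of all 9 groups, and its arrays lay above every embryonic and every wild-type P7 array. Against the embryonic mean it rose by 2.39 ± 0.66 (adjusted p = 0.021), a call lost without any single P0 array (adjusted p from 0.061 to 0.073). Against E15.5 alone it missed (2.05 ± 0.76, adjusted p = 0.084), passing without E15.5 replicate 3 (adjusted p = 0.045). The change between P0 and P7 was -1.20 ± 0.76 and did not pass (adjusted p = 0.54). Its probe A_52_P117510 had Cy5 of 1082, 996 and 1760 at P0 and 294, 132 and 331 at P7, and A_51_P512210 had 683, 721 and 1032 at P0 and 401, 167 and 396 at P7. Both were above background on 2 of 3 arrays at E11.5 and at E15.5. A list of heart markers had mean ratios between -0.41 and 0.95 throughout the series.

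Myh7 encodes the slow skeletal and cardiac beta isoform. Its ratios were 2.82, 1.76 and 3.94 at E11.5, 1.88, 3.82 and 4.03 at E15.5, 4.54, 4.38 and 4.35 at P0, and 4.19, 4.72 and 4.14 at P7. Each P0 and P7 array lay above each embryonic array, and P0 and P7 overlapped. The change from the embryonic mean to P0 was 1.38 ± 0.51 (adjusted p = 0.066), and it passed without both arrays that stood apart (1.31, adjusted p = 0.0025) and by Cy5 alone (3.58 ± 0.87, adjusted p = 0.012). It also passed without E11.5 replicate 3 (adjusted p = 0.020) or E15.5 replicate 3 (0.045). The Cy5 of A_51_P143162 was 397, 6151 and 10623 at E15.5, 20844, 16715 and 28845 at P0, and 5104, 5605 and 8884 at P7. Its Cy3 at P0 was 3618, 2793 and 4535.

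In the step from E15.5 to P0 the members that rose were Myh1, Myh2, Myh4 and Myh8, 4 of 7, where 19.6% of all genes were called and 11.2% were called higher. Without both arrays that stood apart, Myh1 (adjusted p = 0.014), Myh4 (0.013) and Myh8 (0.045) passed and Myh2 (0.12) did not, with 19.3% of all genes called. The change of Myh3 was then 0.46 (adjusted p = 0.74), against 1.58 with them. By Cy5 alone 5 of 7 were called in that step, with Myh3 (4.65 ± 1.33, adjusted p = 0.036) and Myh6 (2.43, adjusted p = 0.027) in and Myh2 out, where 17.4% of all genes were called. Against the embryonic mean, 5 of 7 rose (28.6% of all genes called, 15.1% higher), Myh6 being the addition, and without both arrays that stood apart 6 did, Myh3 excepted (34.2%). The count at E15.5 to P0 was 1 without E15.5 replicate 1 or without P0 replicate 3, and 2 without P0 replicate 1. The count against the embryonic mean was 3 without P0 replicate 1 or 3.

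Between E11.5 and E15.5 no member and 0% of all genes were called by limma, with 332 genes but 0 members at an unadjusted p under 0.05. Without both arrays that stood apart, Myh4 rose by 2.18 ± 0.42 (adjusted p = 0.0092), Myh6 by 2.20 ± 0.46 (0.014) and Myh7 by 1.63 ± 0.31 (0.009), which is 3 of 7 with 13.4% of all genes called. The slide that held 1 E15.5 array and all E11.5 arrays gave differences of the opposite sign, such as -1.37 for Myh3 and -1.10 for Myh6, and its E15.5 array was replicate 1.

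In the maturation phase, from whole esophagus at P7 to adult epithelium, 6 of 7 members fell in wild-type, where 42.8% of all genes were called and 22.8% were called lower. Myh3 and Myh6 met the filter of 3 arrays above background only through their P7 arrays. Their p-values and their places in the counts of this step are therefore descriptive. Myh3 fell most. Its adult ratios were -0.85, -0.57 and -1.19, all far under the P7 values, a change of -6.61 ± 0.22 (97.7-fold, adjusted p = 3.6e-06). The Cy5 of A_51_P167668 was 85853, 40716 and 104060 at P7 and 66.5, 56.8 and 61.2 in adults, where neither Myh3 probe was well above background on any array, so the change has only a bound. Over both probes Cy5 was at least 936-fold lower, the lowest of the bounds on 3 scales (936 from scanner values, 1090 after quantile normalization and 1470 after loess and Aquantile), a choice made after the values were seen.

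Myh7 stood at -0.52, -0.23 and -1.06 in adult epithelium and fell by 4.95 ± 0.25 on the log2 scale (31-fold, adjusted p = 1.5e-05). Its Cy5 intensities were 90.6, 87 and 110, while Cy3 was 368, 372 and 442, so the reference exceeded the esophagus on every adult array. Myh2, at 0.22, 0.48 and 0.82 in adults, fell by 4.12 ± 0.38 (17.4-fold, adjusted p = 0.00019). Myh6, at -0.18, 0.06 and -0.04, fell by 2.69 ± 0.28 (adjusted p = 0.00034), and with no adult array above background its Cy5 was at least 4.96-fold lower, again the lowest of the 3. For these 3 genes no adult array overlapped a P7 array.

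Averaged over probes, Myh8, Myh1 and Myh4 remained well above the reference in adult epithelium, Myh8 and Myh1 mainly through the probe with the shared run. Myh8 was at 2.13, 2.61 and 2.31 and fell 3.49-fold (-1.80 ± 0.43, adjusted p = 0.012), Cy5 alone giving 15.9-fold. Myh1 was at 1.39, 1.59 and 1.53 and fell 1.67-fold (-0.74 ± 0.24, adjusted p = 0.038), a call lost when any single wild-type adult array or P7 replicate 1 or 3 was left out, at adjusted p from 0.078 to 0.11. Myh4 was at 3.28, 4.93 and 3.87, overlapping P7, and its change of -1.21 ± 0.45 did not pass (adjusted p = 0.062), except without P7 replicate 2 (adjusted p = 0.024) or adult replicate 2 (0.016). By Cy5 alone Myh4 did fall, 18.8-fold (-4.24 ± 1.30, adjusted p = 0.033), and 7 of 7 members were called with 44% of all genes. Without P7 replicate 1 or 3 only 5 members could be tested and 3 fell, Myh2, Myh7 and Myh8. Within the scan that held 3 P7 and 2 adult arrays all 7 differences were negative, from -6.45 for Myh3 to -0.75 for Myh1.

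The adult values of Myh8 and Myh1 depended on the probe. At the Myh8 probe with the shared run, adult Cy5 was 2632, 5824 and 7381, while at the probe without it adult Cy5 was 57.2, 50.7 and 43.1. Without the shared-run probe the change of Myh8 was -3.16 ± 0.79 (adjusted p = 0.015). The remaining probe, A_52_P224283, met the filter only through its P7 arrays, so this p-value is descriptive. From the probe with the run alone the change was -0.44 ± 0.17 and missed the threshold (adjusted p = 0.068). At the Myh1 probe with the run, the ratios were 5.27, 4.74 and 5.05 at P7 and 3.95, 4.72 and 4.17 in adults, with Cy5 of 1098, 1601 and 2969. At Myh1 probe A_51_P364788 adult Cy5 was 57.6, 52.5 and 65.4, against 113, 59.4 and 210 at P7. On the wild-type adult arrays, each probe with the run was well above background on 3 of 3 and each other probe of Myh8 and Myh1 on 0 of 3. The same split held at E15.5. Probes of Myh2, none with the run, also differed in wild-type adults, with A_52_P552036 above background on 3 of 3 arrays and A_51_P395652 on 0 of 3. The part of the shared bases in these differences was not tested.

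Markers of other cells moved between these samples. The mean ratio of the 8 skeletal muscle markers was 0.32, 1.07 and 0.06 in wild-type adults, the highest being replicate 2, which also had the highest Myh4 and Myh8, and all 8 markers were above background on every adult array. Smooth muscle markers averaged 2.23 to 2.46 and squamous epithelial markers 4.31 to 4.85 on those arrays. The part of residual muscle wall in the adult values was not tested.

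In Nrf2-/- mice the same step called 5 of 7 members, all lower, where 54.8% of all genes were called and 27.8% called lower. Myh3 and Myh6 again met the filter only because of P7 arrays, so their p-values and places in the counts are descriptive. All Nrf2-/- P7 arrays were in scan 1 and all Nrf2-/- adult arrays in scans 3 and 4. Scan and step cannot be told apart there. Myh3 went from 5.60, 5.66 and 5.47 to -0.96, -0.79 and -1.20 (-6.56 ± 0.19, adjusted p = 2.4e-09). Myh7 went from 4.27, 4.23 and 4.26 to -1.69, -1.48 and -1.18 (-5.71 ± 0.22, adjusted p = 1.6e-08). Both lay far apart at the 2 ages, with no overlap.

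Myh2 was 5.71, 5.59 and 5.36 at P7 and 0.89, 1.99 and 1.79 in Nrf2-/- adults (-4 ± 0.37, adjusted p = 6.2e-06). Myh6 was 3.76, 2.77 and 2.55, then 0.00, -0.11 and -0.08, a fall of 3.09 ± 0.32 on the log2 scale (adjusted p = 1.3e-05), and its Cy5 was at least 6.62-fold lower by the lowest of the 3 bounds. Myh8 fell by 2.21 ± 0.36 (adjusted p = 0.00037), from 4.59, 5 and 5.07 to 2.51, 2.78 and 2.76. The adult values of each gene lay under all its P7 values.

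Myh4, at 5.54, 5.85 and 5.60 and then 4.74, 4.87 and 5.10 (-0.76 ± 0.37, adjusted p = 0.10), and Myh1, at 2.69, 2.75 and 2.84 and then 1.85, 2.37 and 2.57 (-0.49 ± 0.23, adjusted p = 0.091), missed the threshold although their ages did not overlap either. By Cy5 alone both fell (Myh4 by 4 ± 1.08, adjusted p = 0.0092, and Myh1 by 1.80 ± 0.42, adjusted p = 0.0041), and all 7 members were called with 53.6% of all genes. Myh1 also fell in the ratio when its opposite-strand probe was left out (-0.97 ± 0.23, adjusted p = 0.0042), or without wild-type P7 replicate 2 (adjusted p = 0.028), and Myh4 without wild-type adult replicate 2 (adjusted p = 0.037), since all groups of the fit share 1 estimate of the spread. The difference between the genotypes in the P7 to adult change was tested itself, and 0 members passed in limma, with 0.0845% of all genes called. In wild-type, 2 of the 3 adult arrays shared scan 1 with P7, so scan also differs between the genotypes in this test. The lowest adjusted p among members was 0.40, for Myh7 (-0.75 ± 0.31), with 1 member and 2247 genes at an unadjusted p under 0.05.

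Between adult genotypes, 0 of the 5 members that could be tested were called by limma (0.433% of all genes), with 4 of them and 3177 genes at an unadjusted p under 0.05. Myh1 was higher in Nrf2-/- epithelium by 0.76 ± 0.19 (adjusted p = 0.14) and Myh2 by 1.05 ± 0.29 (adjusted p = 0.16), with no overlap of the genotypes in either. Myh7 differed by -0.85 ± 0.23 (adjusted p = 0.16), again without overlap, and Myh4 differed by 0.88 ± 0.37 with overlapping values. Without Nrf2-/- adult replicate 1, Myh1 (0.97, adjusted p = 0.034) and Myh2 (1.38, adjusted p = 0.026) were called. In the Cy5 of Myh4 probe A_52_P602147, Nrf2-/- adults read 3813, 13307 and 8968 and wild-type adults 235, 842 and 695, with Cy3 of 238, 527 and 403 against 89.3, 159 and 84.7. Neither channel overlapped between the genotypes, while the ratios at this probe were 4.62, 4.97 and 5.05 against 2.36, 4.50 and 3.52. The skeletal muscle markers averaged 0.77 to 1.67 in the Nrf2-/- adults against 0.06 to 1.07 in wild-type, and their part in these differences was not tested. Nrf2-/- adults were in scans 3 and 4 and wild-type adults in scans 1 and 3, and within scan 3 Myh1 differed by 0.58 and Myh2 by 0.61.

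Among the genotypes at P7, Keap1-/- against wild-type was the only comparison of the 4 made in which members were called, and the comparisons with wild-type share its 3 arrays. Nrf2-/- against wild-type called 0 members (0.0152% of all genes; 2 members and 2147 genes at an unadjusted p under 0.05), with Myh2 at 0.92 ± 0.32 and Myh1 at 0.51 ± 0.19, both at an adjusted p of 0.40. Nrf2-/-Keap1-/- against wild-type called 0 (0.43% of all genes; 2 members and 3464 genes unadjusted), where Myh2 read 5.69, 5.56 and 5.94 against 4.90, 3.72 and 5.28 (1.09 ± 0.32, adjusted p = 0.13). In that comparison the Myh2 values did not overlap, and by Cy5 alone Myh2 differed 3.59-fold (adjusted p = 0.12) and Myh4 4.53-fold (adjusted p = 0.26). Wild-type P7 replicate 2, the low Myh2 array, also had the lowest skeletal muscle marker mean of its group (3.21 against 4.13 and 4.32). Its squamous epithelial markers averaged 4.31, against 3.81 and 3.88 on the other wild-type P7 arrays. The part of sample composition in the genotype differences was not tested.

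Keap1-/- against wild-type called 2 of 7 members, where 33.3% of all genes were called, so the share was near that of all genes. Myh1 was 2.85, 2.71 and 2.94 in Keap1-/- esophagus, above every wild-type array (0.59 ± 0.19, adjusted p = 0.037). Myh3 was 5.34, 5.01 and 5.41, under every wild-type array (-0.49 ± 0.16, adjusted p = 0.040). Neither call was firm: 0 members were called without wild-type P7 replicate 2, Nrf2-/- P7 replicate 2, or any single Keap1-/- array, 1 without Nrf2-/- P7 replicate 1 or Nrf2-/-Keap1-/- replicate 3, and 3 without wild-type P7 replicate 1 or 3. By Cy5 alone Myh1 differed by 1.22 (adjusted p = 0.032, with 31.2% of all genes called) and Myh3 by -0.29 (adjusted p = 0.52), and with median centring of the arrays the difference of Myh3 was 0.05. Myh4 was 6.23, 5.68 and 5.80 and missed the threshold (0.66 ± 0.25, adjusted p = 0.066).

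Nrf2-/-Keap1-/- against Keap1-/- called 0 members (33.2% of all genes; 2 members and 8634 genes unadjusted by limma). Myh4 was 5.28, 5.22 and 5.42 in the double mutant, under every Keap1-/- array (-0.60 ± 0.25, adjusted p = 0.094), and Myh2 was higher by 0.73 ± 0.32 (adjusted p = 0.11). Without wild-type P7 replicate 2, both were called. Replicate 1 of the double mutant was low for Myh7, at 1.57 against 3.86 and 4.18, and for Myh6, at 0.33 against 2.54 and 2.92. Its Cy5 at Myh7 probe A_51_P143162 was 448 against 9028 and 11197. Keap1-/- replicate 1 was the lowest of its group in the same pair of genes, at 3.54 for Myh7 and 1.02 for Myh6.

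Ordered by group mean, the isoforms peaked in different groups. Myh6 (3.84 ± 0.10, SD, n = 3) and Myh7 (4.42 ± 0.10) were highest at P0, and Myh3 in wild-type at P7 (5.74 ± 0.32). By ratio, Myh8 (4.95 ± 0.35), Myh1 (2.83 ± 0.12) and Myh4 (5.90 ± 0.29) were highest in Keap1-/- and Myh2 (5.73 ± 0.19) in Nrf2-/-Keap1-/- esophagus at P7. By Cy5 alone, Myh8, Myh1 and Myh4 were instead highest in Nrf2-/-Keap1-/- esophagus. The log2 Cy5 of Myh8 was 14.29 ± 0.16 there against 14.08 ± 0.18 in Keap1-/-, and that of Myh4 16.26 ± 0.33 against 16.02 ± 0.20. Myh2, Myh3, Myh6 and Myh7 kept their highest group by Cy5 alone. Most neighbours in each order by ratio overlapped. For Myh3 the neighbouring groups separated only between P0 (5.10 ± 0.12) and E15.5 (3.52 ± 1.95) and between E11.5 (2.63 ± 1.89) and wild-type adults (-0.87 ± 0.31). For Myh6 no neighbours separated.

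At the low end, the adult groups were lowest for Myh3, Myh6 and Myh7, and the embryonic groups for Myh8, Myh1 and Myh4. Myh8 in wild-type adults (2.35 ± 0.24) lay above all E15.5 arrays (1.69 ± 0.42), and Myh4 in wild-type adults (4.02 ± 0.84) above all E15.5 arrays (2.02 ± 1.26). For Myh8 this order came from the probe with the shared run, at 4.64 in wild-type adults against 3.29 at E15.5. At Myh8 probe A_52_P224283 the means were 0.06 and 0.1. Myh1 in wild-type adults (1.5 ± 0.10) overlapped P0 (1.48 ± 0.34), and Myh2 in wild-type adults (0.51 ± 0.30) overlapped E11.5 (0.30 ± 0.18) and E15.5 (0.30 ± 0.22).

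Across the 27 arrays, as a description in which groups and arrays are shared, Myh1, Myh2, Myh4 and Myh8 correlated with each other at r between 0.77 and 0.94, and Myh3, Myh6 and Myh7 at 0.82 to 0.94. Between these sets r was lower, for example 0.65 for Myh2 with Myh3, 0.63 for Myh3 with Myh8 and 0.08 for Myh1 with Myh7. Among 21563 genes, the pattern of Myh3 was most like that of Myog, a myogenic transcription factor (r = 0.98), of Tnnt1, slow skeletal troponin T (0.97), and of Cartpt, a neuropeptide precursor (0.96). The pattern of Myh8 was most like those of Mylk2, skeletal myosin light chain kinase, Sgca, alpha-sarcoglycan, and Ckmt2, sarcomeric mitochondrial creatine kinase (0.98 each). Myh1 and Myh4 shared Mybpc2, fast myosin-binding protein C, as the most similar gene (0.97 each), followed for Myh1 by Acadl, a long-chain acyl-CoA dehydrogenase (0.97), and Smtnl1 (0.96), and for Myh4 by Tnni2, fast skeletal troponin I (0.97), and Pdk4, a pyruvate dehydrogenase kinase (0.96). For Myh2 the most similar were Lrtm1, Cox7a1, a muscle subunit of cytochrome c oxidase, and Crhr2 (0.98 each), for Myh7 Pcp4, Tmem130 and Dlk1 (0.95 each), and for Myh6 Rgs2 and Tnnc1, slow and cardiac troponin C (0.90 each), after an unnamed probe (0.92).

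Partners of the myosin heavy chains in the sarcomere moved in the same steps, with all arrays kept under their labels. Between E15.5 and P0, 10 of 14 thick-filament genes tested rose and none fell, with a median change of 2.19, where 11.2% of all genes were called higher and the median of all genes lay within 0.01 of 0. They included the light chains Myl1 (4.06 ± 0.72, adjusted p = 0.0036) and Mylpf (3.69) and the slow binding protein Mybpc1 (2.64). Of 17 thin-filament genes 7 rose (median 1.58), among them fast troponin T, Tnnt3 (4.04 ± 0.67, adjusted p = 0.0027), and of 17 Z-disc and calcium-handling genes 11 rose (median 1.97), among them Myot (4.14), which encodes the Z-disc protein myotilin. Unc45b, the chaperone that folds myosin heads, rose by 2.74 ± 0.55 (adjusted p = 0.0066), while the cytosolic chaperone gene Hsp90aa1 fell by 0.75.

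Of 17 regulators of muscle genes, 5 rose in that step: the myogenic factors Myf6 (3.77), Myog (2.02) and Myf5 (0.89), and Tbx15 (1.79) and Mef2d (0.51). Between P0 and P7, when Myh2 rose, no thick-filament, thin-filament or Z-disc gene was called by limma, and the 1 regulator called was Nfatc1 (0.67 ± 0.15, adjusted p = 0.044), a calcineurin-dependent factor. Among the non-sarcomeric heavy chains, Myh14 rose by 0.70 and Myh10, which encodes nonmuscle myosin IIB, fell by 0.87 between E15.5 and P0.

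From P7 to adult in wild-type mice, 10 of 14 thick-filament genes fell and 1, the atrial light chain Myl7 (0.88), rose, with a median of -2.44, where 22.8% of all genes were called lower. Myl1 changed by -5.64 and the embryonic and atrial light chain Myl4 by -5.17. Of 17 thin-filament genes 15 fell (median -2.33), including Tnnt1 (-5.74), and of 18 Z-disc and calcium-handling genes 15 fell (median -2.44). Of 15 regulators 10 fell, among them Myog (-5.53) and Myf6 (-4.62), and Unc45b fell by 2.86. In Nrf2-/- mice the counts were 10 lower and 1 higher of 14 thick-filament genes and 15 lower of 17 thin-filament genes, where 54.8% of all genes were called and 27.8% called lower. In Keap1-/- against wild-type at P7, 3 of 14 thick-filament, 3 of 17 thin-filament and 8 of 18 Z-disc genes were higher and 6 of 8 smooth muscle markers were lower, where 33.3% of all genes were called. That share counts both directions, so it is no measure for counts in 1 direction. Genotype and scan cannot be told apart in this comparison. Myh13, the extraocular isoform, was never above background.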

How the data were processed

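RNA was hybridised with Cy3-labelled Universal Mouse Reference RNA in 27 2-colour arrays, without dye swap. Per the file headers, the deposited spot intensity values came from Feature Extraction 10.5.1.1 or 10.7.3.1, and the labels give version 9.1. The authors also deposited log10 ratios of the same arrays, used as an alternative and converted to log2 ratios. From the intensities, normexp background correction (offset 50, leaving out spots whose surroundings exceeded 5 times their array's median background) and loess within arrays were run in limma 3.58.1 (R 4.3.3), spots flagged as outliers were kept, and probes were averaged by gene. Genes needed 3 arrays above background. Groups were fitted with lmFit and eBayes, and p-values were Benjamini-Hochberg adjusted over all genes tested, at a threshold of 0.05. Nothing in the labels says whether replicates came from separate litters, so p-values measure only the spread between these samples. Separate fits held the 12 arrays of the metaplasia phase, the 4 genotypes at P7, wild-type P7 with adult, both genotypes at both ages, and the adult genotypes. The number of arrays limits the precision, and no depth applies.

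Members and gene lists were chosen with earlier results of these data known. The genes named were all 7 members, the 3 genes most correlated with each over 27 arrays, up to 3 called genes of each list with the largest change in a comparison, the light chains, troponins and other heavy chains, and Nfe2l2 and Keap1. List genes whose call is 1 of 5 or fewer were also named, after their values were seen. Same-numbered replicates were checked for pairing: 30 pairs correlated at -0.45 to 0.63, and every pair exceeded 0.1 in 2 of 10 comparisons, P7 against P0 and Nrf2-/-Keap1-/- against Keap1-/-. On simulated data, changes of 2 on the log2 scale were recovered at 89.6% (E15.5 against E11.5, 20463 genes) and 94% (wild-type adult against P7, 18630 genes). The changes were set in randomly drawn genes, with noise drawn independently for each gene and array. The simulation therefore did not model the 2 embryonic arrays that stood apart, and its shares do not measure the power for the members.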

Additional observations from a re-analysis of the deposited data

How the results depend on the processing

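Of the changes of single isoforms recomputed under alternative settings, 1166 kept their direction and side of the threshold, 74 lost and 40 gained a call, and 11 changed sign. The sign changes were all of changes not called, except Myh3 in Keap1-/- against wild-type. Myh8 from P0 to P7 went to -0.29 with outlier spots dropped. Myh7 in that step went to 0.04 with each spot's own background, 0.11 with scaling between arrays, and ranged from -0.26 to 0.03 as single arrays were left out, being 0.01 and 0.03 without wild-type P7 replicate 1 or 3. With median centring in place of loess, Myh4 from P7 to adult in Nrf2-/- mice was 0.03 and Myh3 in Keap1-/- against wild-type 0.05. Between adult genotypes, Myh4 was -0.24 from the scanner's processed signals and -0.24 from the deposited ratios, and Myh8 -0.13 with scaling and -0.06 from its brightest probe. The cause was not tested.

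Counts of members called were within 1.5 times the main count in 371 recomputations and moved in 46. Over the 4 ages the count was 7 by Cy5 alone (both normalizations, the quantile one chosen after seeing the data) and 7 without both arrays that stood apart, which also gave 3 for E15.5 against E11.5. For P0 against E15.5 it was 2 with outlier spots dropped, where 5 members could be tested, and 1 with own background, and against the embryonic mean 3 with own background. For P7 against P0 it was 0 from the processed signals and from the deposited ratios, and 2 with all 27 arrays in 1 fit. With outlier spots dropped the adult steps gave 2 in wild-type and 3 in Nrf2-/- mice, the latter also 3 under a filter on both channels. The genotype difference of that step was 1 (Myh7) with own background. For Keap1-/- against wild-type the count was 1 with scaling, by Cy5 alone under either normalization and with all arrays, 4 with the brightest probe, and 0 when a change of at least 2-fold was required. For Nrf2-/-Keap1-/- against Keap1-/- it was 1 without background correction, from processed signals, from deposited ratios and with median centring, and 3 with the brightest probe. Between adult genotypes it was 2 with own background and 1 with all arrays.

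Leaving out each array in turn gave 4 to 7 members over the ages, 0 to 0 for E15.5 against E11.5, 1 to 4 for P0 against E15.5, 3 to 6 against the embryonic mean, 1 to 2 for P7 against P0, 3 to 6 and 5 to 6 for the adult step in wild-type and Nrf2-/- mice, 0 to 3 for Keap1-/-, 0 to 2 for Nrf2-/-Keap1-/- against Keap1-/-, and 0 to 2 between adults. With the replicate number as a block, no member call changed in the 2 comparisons where every pair correlated, and the genes called were 493 against 502 without the block for P7 against P0 and 6315 against 6564 for Nrf2-/-Keap1-/- against Keap1-/-. Elsewhere the samples share only a number: the block gave 5 members in the wild-type adult step and 1 in Keap1-/- against wild-type. The slide could not be fitted as a fixed block in any comparison. Low signal over background limits Myh6 and the adult values of Myh3.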

Other observations

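A few probes carried a member's name in only 1 version of the arrays' annotation and were left out of the gene means. A_52_P363051, named Myh8 in the older version, had log2 ratios of -0.08 to 0.16 in the embryo, 1.27 to 3.16 at P0, 0.23 to 4.79 in wild-type at P7, 5.09 to 5.85 in Keap1-/- esophagus, 0.03 to 0.28 in wild-type adults and 0.56 to 1.68 in Nrf2-/- adults. Like Myh8 probe A_52_P224283, it read near 0 in wild-type adult epithelium. A_52_P582746, named Myh2 in the newer version, ran the other way, at -0.27 to 0.46 up to P7 and at 1.66 to 2.22 in wild-type and 2.08 to 2.24 in Nrf2-/- adults. Another, A_51_P239800, was highest in Keap1-/- esophagus, at 1.14 to 1.31.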
